A study of Mus musculus with 6 samples.

Results

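RNA was measured by bulk RNA-seq in corneal keratocytes, the resident mesenchymal cells of the corneal stroma. Through the table, 39 genes of glycolysis, the pentose phosphate pathway and the oxidation of pyruvate in mitochondria were followed. The genes were picked by symbol, and all 39 had a row among the 17606 genes listed. Control mice and Prrx1-CreERT;Ptch1 f/f mice, called Ptch1-ablated here, were 10 weeks old and had all been given 3 doses of tamoxifen, 1 month before the cells were sorted from the cornea. Tamoxifen activates the Cre recombinase that the knock-in Prrx1-CreERT allele drives, which was to delete floxed Ptch1, the receptor that restrains Hedgehog signaling. Each group had 3 libraries, described by the study as biological replicates, and neither pooling nor the sex of the mice was given per library. The sample titles mark the controls as WT and the study calls them age-matched, and whether they carried the Cre or a floxed allele was not stated in the sources used here. Prrx1-CreERT also recombines in corneal endothelium and in other mesenchyme of the eye, and the comparison asked what Hedgehog activation does to keratocyte gene expression.

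Glycolysis turns glucose into pyruvate in the cytosol, and pyruvate is either reduced to lactate or oxidized in mitochondria by the pyruvate dehydrogenase complex. The pentose phosphate pathway branches off after hexokinase: its oxidative arm makes NADPH, and its non-oxidative arm, run by transketolase and transaldolase, exchanges sugar carbons with glycolysis. In the cornea, transketolase (Tkt) is stored at unusually high levels and is counted, with aldehyde dehydrogenases, among the corneal crystallins, the soluble enzymes linked to transparency. The corneal epithelium is also known to be rich in Tkt.

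Library totals ran from 20258439 to 24788063 expected counts. Levels within a gene are given as CPM, counts scaled to a common library size after TMM, and levels between genes as TPM, which the authors scaled by transcript length. Ptch1 and Gli1 were higher in every Ptch1-ablated library than in any control, at log2 fold changes of 4.47 and 7.15. The gene total of Ptch1 does not resolve its deleted exons. The keratocyte genes Kera, Lum, Dcn and Col1a1 were abundant in all libraries, whereas Ptgds, on the same marker list, was too low to be tested. The log2 fold change, written log2FC, is Ptch1-ablated over control and carries its standard error (SE) from edgeR's quasi-likelihood test. A gene passed the test at an adjusted p of at most 0.05 over all 13888 genes tested. In bulk samples, fewer cells of a type cannot be told apart from less RNA per cell.

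Of the 39 members 38 could be tested, and 11 passed, 6 of them higher and 5 lower in Ptch1-ablated keratocytes. This was 28.9% of the members tested, beside 8.48% of all genes tested, of which 4.68% were higher and 3.8% lower. The 6 that rose were the lactate exporter Slc16a3, Hk1, Pfkl, Pfkfb3, Pgam1 and Pdk3. The 5 that fell were Tkt, Taldo1, Aldoc, Eno3 and Pdk2. With a minimum of 2-fold added, 6 members remained past the thresholds, 3 higher and 3 lower, beside 5.49% of all genes, 3.36% higher and 2.13% lower. The median log2FC of the 38 members was 0.05 and that of all genes tested was 0.0046. The CPM of the groups did not overlap in 10 members that were higher and 8 that were lower, beside 27.4% of all genes tested, 14.1% higher and 13.3% lower.

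**Figure D1:**
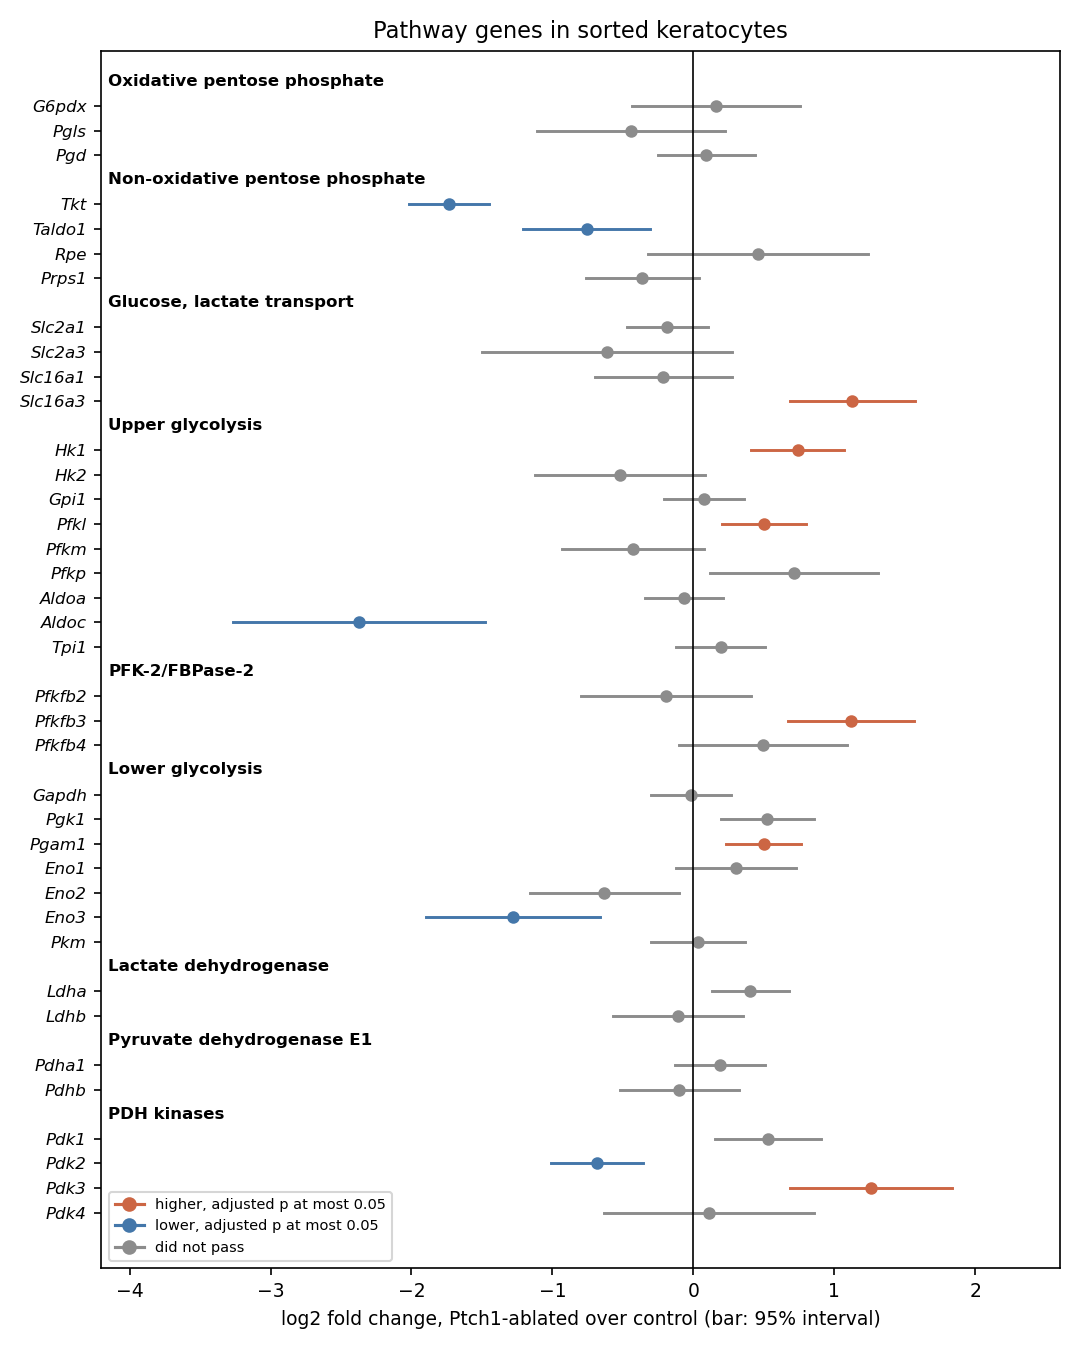
Log2 fold change of the 38 tested members (Ptch1-ablated over control, points) with its 95% interval (bars), grouped by role. Tkt and Aldoc lie farthest to the left, at -1.73 and -2.37, and Pdk3, Slc16a3 and Pfkfb3 farthest to the right, between 1.12 and 1.26.

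The call depended on the gene. Tkt, Aldoc, Hk1, Pfkfb3, Slc16a3 and Pdk3 passed in all 15 other fits, which changed the scaling, the filter, the tool or the libraries. The other 5 called members lost the call in some of them. The number of members past the threshold was 7 without control replicate 2, control replicate 3 or Ptch1-ablated replicate 1. When libraries were scaled by their totals only, the log2FC values of all genes moved up by a median of 0.17 and 13 members passed, 9 higher and 4 lower. In limma on log2(TPM + 1) this shift was 0.20 and 14 members passed, 10 higher and 4 lower.

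**Figure D2:**
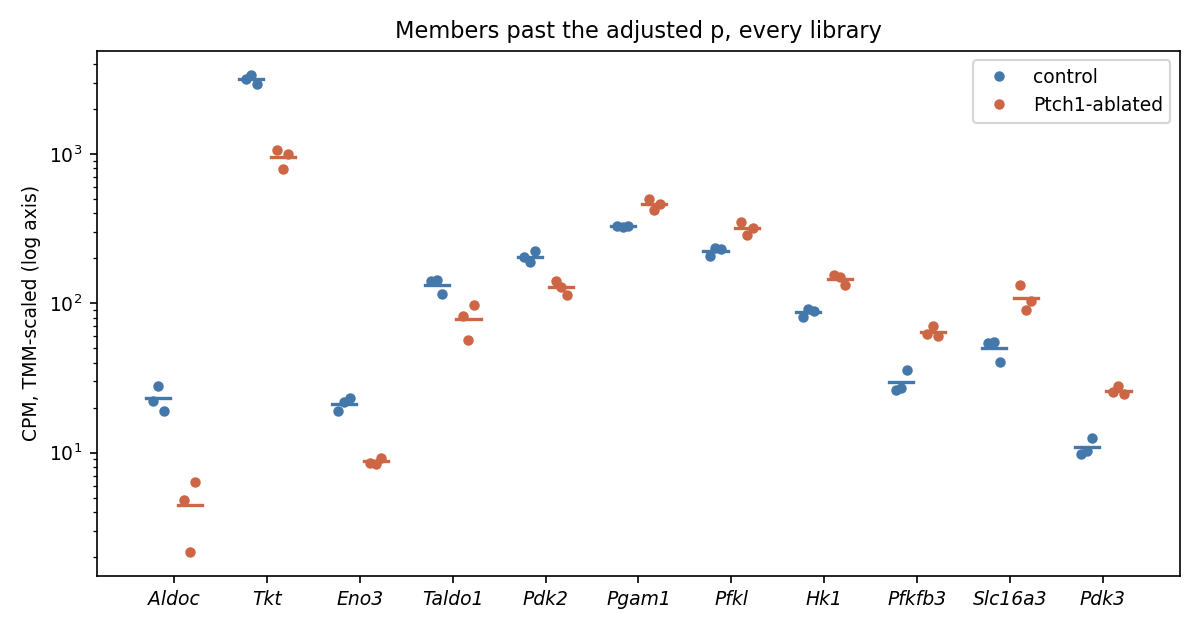
CPM (TMM-scaled, log axis) of the 11 members past the adjusted p in each of the 3 control and 3 Ptch1-ablated libraries (points) with the group means (lines). In none of the 11 do the groups overlap.

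For 3 of the 6 members that passed in every fit, RefSeq gives a single start site, and the 250 bases before it (GRCm38.p6) are shown to place these genes. Capitals mark ACGTG on either strand, a form of the core letters bound by hypoxia-inducible factor. These letters also lie within the E-box CACGTG. The form GCGTG was not searched, and the Tkt and Pdk3 windows hold it.
Tkt (chr14:30548881-30549130, plus strand): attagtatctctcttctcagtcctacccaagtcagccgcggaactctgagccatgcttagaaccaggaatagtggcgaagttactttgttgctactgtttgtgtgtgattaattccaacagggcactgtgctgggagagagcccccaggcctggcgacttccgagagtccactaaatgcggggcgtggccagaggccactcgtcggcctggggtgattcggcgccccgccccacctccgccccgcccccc
Slc16a3 (chr11:120948817-120949066, plus strand): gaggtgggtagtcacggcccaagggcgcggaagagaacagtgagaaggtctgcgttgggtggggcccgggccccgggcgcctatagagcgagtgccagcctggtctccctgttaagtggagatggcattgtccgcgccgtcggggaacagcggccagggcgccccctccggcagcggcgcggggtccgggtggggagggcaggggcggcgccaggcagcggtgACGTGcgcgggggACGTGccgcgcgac
Pdk3 (chrX:93832151-93832400, minus strand): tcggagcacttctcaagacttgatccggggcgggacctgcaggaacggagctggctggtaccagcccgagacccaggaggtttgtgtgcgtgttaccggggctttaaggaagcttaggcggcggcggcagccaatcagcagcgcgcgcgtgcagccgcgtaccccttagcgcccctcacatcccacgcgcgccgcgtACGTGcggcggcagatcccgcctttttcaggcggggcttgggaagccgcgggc
The window of Slc16a3 held ACGTG at 2 places, that of Pdk3 at 1, and that of Tkt at 0. Windows were found for 38 members by symbol, and 15 of these genes held ACGTG, beside 24.5% of the 10992 tested genes with a window. Among the members that rose, 4 held it (Slc16a3, Pfkfb3, Pgam1 and Pdk3), and among those that fell, Pdk2 did. The Gli site GACCACCCA was in the windows of 0 members and of 0.227% of the tested genes, and the antioxidant element core TGACNNNGC was in those of 4 members, beside 13.9% of the tested genes. The median GC content was 59.6% in the members' windows and 52.4% in all windows. A match says only that the letters are present.

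The non-oxidative arm of the pentose phosphate pathway fell at its central enzymes. Tkt (Entrez 21881), which moves carbon units between sugar phosphates, stood at 3173, 3394 and 2921 CPM in control replicates 1 to 3 and at 1065, 789 and 999.8 in Ptch1-ablated replicates 1 to 3. The lowest control was thus far above the highest Ptch1-ablated library. The log2FC was -1.73 ± 0.13 (SE, adjusted p = 5.08e-06 by edgeR), or 3.32-fold lower, and ran from -1.82 to -1.53 over the alternatives. Taldo1, the transaldolase that works beside it, stood at 142, 143 and 115 CPM in controls and at 82.5, 56.5 and 97.1 in Ptch1-ablated libraries. Its log2FC was -0.76 ± 0.21 (SE, adjusted p = 0.0411 by edgeR). This call was lost in 7 of 15 alternatives, among them those without control replicate 1 or 2 or Ptch1-ablated replicate 1 or 2 and the scaling by library totals, with an adjusted p of up to 0.146.

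The rank of Tkt among the members differed between the groups. By TPM it was the most abundant of the 39 in every control library, at 2084, 2236 and 1993, and ranked 7, 8 and 7 in the Ptch1-ablated ones, at 811, 643 and 739. Among all 17606 genes it ranked 45 to 48 in controls and 141 to 173 in Ptch1-ablated libraries. It held 17.7 to 18.2% of the summed TPM of the members in controls and 5.64 to 6.17% in Ptch1-ablated libraries. The other 38 members together had 8971 to 10046 TPM in controls and 10770 to 12330 in Ptch1-ablated libraries. The TPM scale sets all genes higher in Ptch1-ablated libraries by a median of 0.20 (log2), and by TMM-scaled CPM, a comparison added after seeing the data, the groups overlapped. The 37 other tested members then summed to 7165 to 8064 CPM in controls and 7177 to 8925 in Ptch1-ablated libraries. Markers of corneal epithelium, corneal endothelium and keratocytes moved with Tkt. Of all genes tested, 3.8% were lower and 4.68% higher. The summed level of 12 epithelial markers was 58.9 to 77.5 CPM in controls and 5.14 to 14.2 in Ptch1-ablated libraries, with 3 of 9 tested lower and 1 higher. The basal keratins Krt5, Krt14 and Krt15 were the 3 that fell, and Krt12, the keratin of differentiated corneal epithelium, was the 1 that rose, from 0 in all controls to between 0.895 and 2.09 CPM. The summed level of 6 corneal endothelial markers was 7246 to 8225 CPM in controls and 3845 to 4455 in Ptch1-ablated libraries, with Aqp1 (log2FC -0.99) and Alcam (-1.77) lower and 1 marker higher. Of 7 tested keratocyte markers 5 were lower, Kera and Col1a1 among them, and the summed level of the list was 165389 to 196379 CPM in controls and 98791 to 110055 in Ptch1-ablated libraries. The part of these shifts in the fall of Tkt was not tested.

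The remaining genes of this arm did not pass. Prps1, which makes phosphoribosyl pyrophosphate for nucleotides, was at 59.9 ± 2.61 and 46.5 ± 5.73 CPM (SD, n = 3 each) and had a log2FC of -0.36 ± 0.18 (SE, adjusted p = 0.298 by edgeR). Rpe, the ribulose phosphate epimerase, was at 13.3 ± 5.10 and 18.3 ± 5.19 CPM (SD, n = 3 each), with a log2FC of 0.46 ± 0.36 (SE). Rpia, the ribose phosphate isomerase, had 3, 0 and 10 counts in controls and 14, 9 and 11 in Ptch1-ablated libraries, too few to be tested.

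No gene of the oxidative arm passed, although 2 of the 3 had intervals wide enough to hold sizeable changes. Pgls, the lactonase, stood at 54.5, 41.6 and 21.4 CPM in controls and 32.0, 25.7 and 28.6 in Ptch1-ablated libraries. Its log2FC of -0.44 had a 95% interval from -1.11 to 0.22. G6pdx, the dehydrogenase that commits glucose to the pathway, had 0.16 with an interval from -0.44 to 0.75, and Ptch1-ablated replicate 2 lay at 27.2 CPM beside 58.3 and 53.5 in the others. Pgd, the phosphogluconate dehydrogenase, was measured most tightly, at 0.09 with an interval from -0.25 to 0.44. The summed TPM of the 3 genes was 246 ± 42.1 in controls and 262 ± 27.3 in Ptch1-ablated libraries (SD, n = 3 each). These sums overlapped between the groups.

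At the cell surface, the lactate exporter changed and the glucose transporters did not pass. Slc16a3, which encodes the monocarboxylate carrier typical of lactate-releasing cells, stood at 54.0, 55.3 and 40.3 CPM in controls and at 133, 90.3 and 103 in Ptch1-ablated libraries. The groups did not overlap, and the log2FC was 1.13 ± 0.20 (SE, adjusted p = 0.0041 by edgeR), or 2.18-fold higher. Slc16a1, the related carrier, was at 39.6 ± 6.02 and 34.2 ± 5.55 CPM (SD, n = 3 each), with a log2FC of -0.21 ± 0.22 (SE). Slc16a3 accordingly made up 71.1 ± 6.50% of the TPM of the pair in controls and 86.3 ± 0.518% in Ptch1-ablated libraries (SD, n = 3 each). Slc2a1, the main glucose transporter here, stood at 251, 249 and 259 CPM in controls and 235, 200 and 232 in Ptch1-ablated libraries. The groups did not overlap, yet the log2FC of -0.19 ± 0.13 (SE, adjusted p = 0.485 by edgeR) did not pass, and it was 0.022 in limma on log2(TPM + 1). Slc2a3, the other glucose transporter, was far lower, at 5.91 ± 2.27 and 4.76 ± 1.67 TPM (SD, n = 3 each), with a log2FC of -0.61 ± 0.41 (SE).

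In upper glycolysis, Hk1 and Pfkl rose and Aldoc fell. Hk1, the broadly expressed hexokinase that traps glucose in the cell, stood at 81.0, 91.4 and 88.4 CPM in controls and 155, 149 and 132 in Ptch1-ablated libraries. Its log2FC was 0.74 ± 0.15 (SE, adjusted p = 0.0087 by edgeR), with the groups well apart. Hk2, the inducible hexokinase, had a log2FC of -0.52 ± 0.27 (SE, adjusted p = 0.325 by edgeR). Its share of the TPM of the hexokinase pair went from 22.4 ± 4.42% in controls to 10.9 ± 3.44% in Ptch1-ablated libraries (SD, n = 3 each). The summed TPM of both hexokinases was 59.6 to 62.2 in controls and 89.9 to 114 in Ptch1-ablated libraries.

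Phosphofructokinase, the main control point of glycolysis, has liver (Pfkl), muscle (Pfkm) and platelet (Pfkp) forms. Pfkl stood at 208, 235 and 233 CPM in controls and 352, 285 and 319 in Ptch1-ablated libraries, a log2FC of 0.50 ± 0.14 (SE, adjusted p = 0.0398 by edgeR). Its groups did not overlap, but the call was lost in 7 of 15 alternatives, including every one that left out a library except Ptch1-ablated replicate 2. Pfkm had -0.43 ± 0.23 (log2FC, SE, adjusted p = 0.334 by edgeR). Pfkp had 0.71 ± 0.27 (log2FC, SE, adjusted p = 0.153 by edgeR), and passed in both limma fits. As shares of the family, Pfkl went from 61.7 ± 4.51 to 71.9 ± 3.12%, Pfkm from 32.9 ± 3.95 to 20.1 ± 2.31% and Pfkp from 5.42 ± 0.565 to 8.01 ± 0.976% (TPM, SD, n = 3 each). In none of these 3 shares did the groups overlap.

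Aldoc, the aldolase best known from brain, fell the most of all members, from 22.0, 28.0 and 19.1 CPM in controls to 4.82, 2.17 and 6.32. The groups were far apart, at a log2FC of -2.37 ± 0.41 (SE, adjusted p = 0.00307 by edgeR), or 5.18-fold lower. It was a minor form throughout, with 1.33 ± 0.176% of the aldolase TPM in controls and 0.265 ± 0.109% in Ptch1-ablated libraries (SD, n = 3 each). Aldoa, the abundant form, stood at 935, 933 and 768 CPM in controls and 874, 751 and 893 in Ptch1-ablated libraries, and the groups overlapped. Its log2FC was -0.07, with a 95% interval from -0.34 to 0.21, and it was 0.097 when libraries were scaled by their totals. Gpi1, which isomerizes glucose phosphate, had a log2FC of 0.08 ± 0.13 (SE), and the triose isomerase Tpi1 had 0.19 ± 0.14 (SE).

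The regulator of phosphofructokinase rose in one of its forms. Pfkfb3, whose product makes the sugar bisphosphate that activates phosphofructokinase, stood at 26.2, 27.0 and 35.9 CPM in controls and 62.7, 70.7 and 59.9 in Ptch1-ablated libraries. The groups did not overlap, and the log2FC was 1.12 ± 0.20 (SE, adjusted p = 0.00459 by edgeR), or 2.17-fold higher. Pfkfb2 was at 21.1 ± 1.02 and 18.4 ± 4.88 CPM and Pfkfb4 at 25.4 ± 8.54 and 35.8 ± 4.94 CPM (SD, n = 3 each), and neither passed. The share of Pfkfb3 among the 3 went from 33.7 ± 6.40 to 47.9 ± 1.13% (TPM, SD, n = 3 each).

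In lower glycolysis, 1 gene rose and 1 fell. Pgam1, the phosphoglycerate mutase, stood at 330, 324 and 328 CPM in controls and 502, 424 and 464 in Ptch1-ablated libraries. The controls differed little among themselves, and the log2FC was 0.50 ± 0.12 (SE, adjusted p = 0.0244 by edgeR). This call, too, was lost in all fits that left out a library except that without Ptch1-ablated replicate 2, with an adjusted p of up to 0.113. Pgk1, the phosphoglycerate kinase one step before it, was at 127, 151 and 132 CPM in controls and 218, 173 and 199 in Ptch1-ablated libraries. Its groups did not overlap, but the log2FC of 0.53 ± 0.15 (SE, adjusted p = 0.0521 by edgeR) missed the threshold, which it passed in 7 of 15 alternatives.

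Enolase is made as the general form Eno1, the neuronal Eno2 and the muscle form Eno3. Eno3 fell from 18.9, 21.7 and 23.1 CPM in controls to 8.57, 8.41 and 9.18, with no overlap. The log2FC was -1.28 ± 0.28 (SE, adjusted p = 0.0137 by edgeR), or 2.43-fold lower. The adjusted p reached 0.0585 without control replicate 2 or 3 or Ptch1-ablated replicate 1, where the call was lost. Its counts were not whole in any library, so that part of them was shared with other loci. Eno2 was at 33.1 ± 4.85 and 21.3 ± 3.65 CPM (SD, n = 3 each), with a log2FC of -0.63 ± 0.24 (SE, adjusted p = 0.152 by edgeR). Eno1 had 0.30 ± 0.20 (log2FC, SE, adjusted p = 0.44 by edgeR), with Ptch1-ablated replicate 2 at 486 CPM beside 821 and 825. Eno1 held most of the enolase TPM in both groups, and the share of Eno3 went from 3.77 ± 0.729 to 1.19 ± 0.207% (SD, n = 3 each).

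Gapdh, often used as a constant reference, did not pass, and neither did Pkm. Gapdh stood at 1009, 1095 and 843 CPM in controls and 916, 912 and 1084 in Ptch1-ablated libraries, and the ranges overlapped. Its log2FC was -0.02, with a 95% interval from -0.30 to 0.27, and it was 0.15 when libraries were scaled by their totals. Its counts were not whole in any library. Pkm, the pyruvate kinase gene, was at 1441 ± 128 and 1473 ± 317 CPM (SD, n = 3 each), a log2FC of 0.03 with an interval from -0.30 to 0.37. Gene totals do not separate the splice forms of Pkm.

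**Figure D3:**
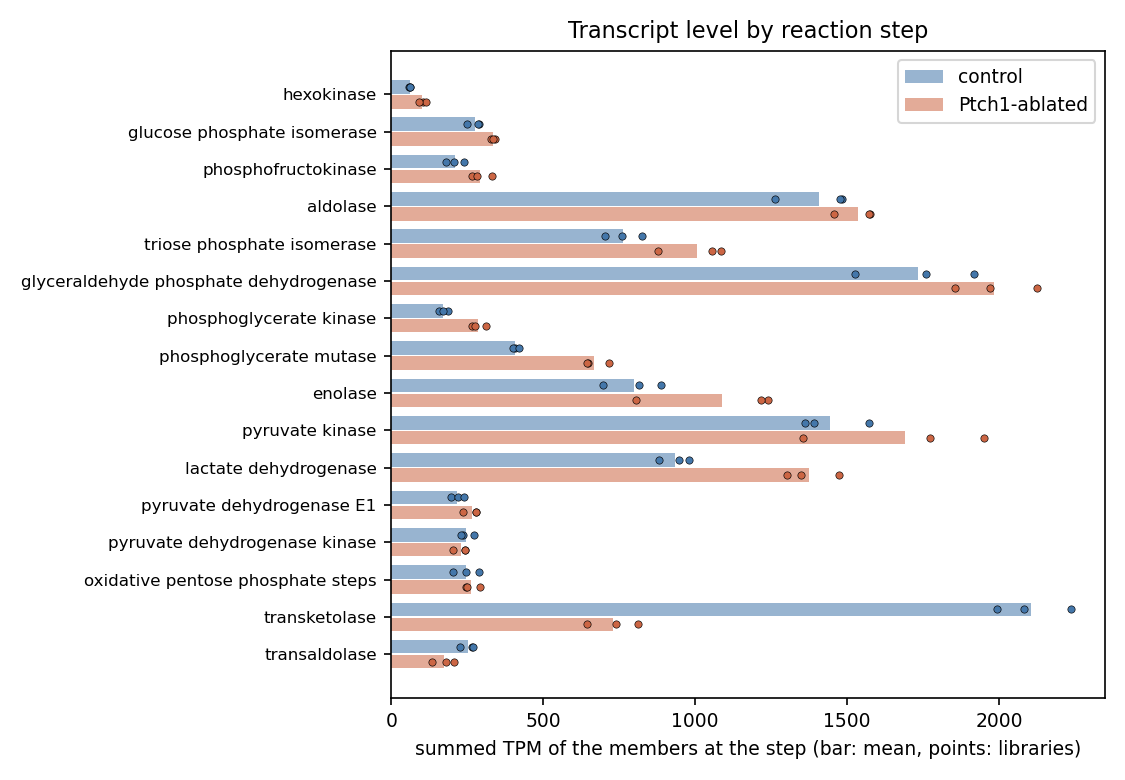
Summed TPM of the members at each reaction step, as the group mean (bars) and in each library (points), for 3 control and 3 Ptch1-ablated libraries. Transketolase drops from a mean of 2104 to 731, whereas phosphoglycerate mutase goes from 409 to 669 and lactate dehydrogenase from 935 to 1374, on a scale that sets all genes higher in Ptch1-ablated libraries by a median of 0.20 (log2).

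Lactate dehydrogenase, which converts pyruvate and lactate into each other, was compared by its muscle-type (Ldha) and heart-type (Ldhb) subunits. Ldha stood at 614, 563 and 519 CPM in controls and 733, 680 and 833 in Ptch1-ablated libraries. The groups did not overlap, but the log2FC of 0.41 ± 0.13 (SE, adjusted p = 0.0724 by edgeR) did not pass. It passed in 4 of 15 alternatives, which were DESeq2, the scaling by library totals and both limma fits. Ldhb was at 67.7 ± 11.4 and 62.8 ± 13.3 CPM (SD, n = 3 each), a log2FC of -0.11 ± 0.21 (SE), which was 0.058 when libraries were scaled by their totals. The share of Ldhb was 11.3, 15.8 and 13.6% of the TPM of the pair in controls and 11.1, 8.39 and 9.97% in Ptch1-ablated libraries. These shares did not overlap, though the nearest libraries differed by little.

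The pyruvate dehydrogenase complex oxidizes pyruvate inside mitochondria, and its kinases (Pdk1 to Pdk4) switch it off. The genes of its catalytic subunits did not pass. Pdha1 stood at 160, 148 and 176 CPM in controls and 165, 186 and 201 in Ptch1-ablated libraries, a log2FC of 0.19 ± 0.15 (SE, adjusted p = 0.534 by edgeR) with overlapping groups. Pdhb had -0.10 ± 0.19 (log2FC, SE), and 0.072 when libraries were scaled by their totals. The kinases, in contrast, changed in composition. Pdk2, the most abundant kinase gene, fell from 204, 189 and 222 CPM in controls to 141, 129 and 113. Its groups did not overlap, and the log2FC was -0.68 ± 0.15 (SE, adjusted p = 0.0126 by edgeR), and the call was lost in both limma fits and without control replicate 3 or Ptch1-ablated replicate 3 (adjusted p up to 0.0708).

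Pdk3 rose from 9.73, 10.2 and 12.6 CPM in controls to 25.6, 27.8 and 24.5. The replicates lay close together, and the log2FC was 1.26 ± 0.26 (SE, adjusted p = 0.0101 by edgeR), or 2.39-fold higher. Pdk3 is X-linked, as are the members Pgk1, G6pdx, Prps1 and Pdha1. Their log2FC values were 0.53, 0.16, -0.36 and 0.19, and none of them passed. Of the Y-linked genes, Ddx3y fell from 10.0 ± 3.34 to 2.67 ± 0.512 CPM (SD, n = 3 each). Eif2s3y and Uty, at log2FC values of -0.38 and -0.11, did not pass. The part of the sex of the mice in the result was not tested. Pdk1, a known target of hypoxia-inducible factor, stood at 59.1, 73.4 and 71.0 CPM in controls and 110, 87.1 and 96.8 in Ptch1-ablated libraries. Its groups did not overlap, but 0.53 ± 0.17 (log2FC, SE, adjusted p = 0.0864 by edgeR) did not pass. Pdk4, the kinase induced by fasting, was at 12.7 ± 2.43 and 13.7 ± 4.11 CPM (SD, n = 3 each) and did not pass. The summed TPM of the 4 kinases was 246 ± 24.1 in controls and 230.4 ± 22.8 in Ptch1-ablated libraries (SD, n = 3 each). Within that sum Pdk2 went from 82.0 ± 1.87 to 63.0 ± 2.39%, Pdk1 from 11.2 ± 1.43 to 19.9 ± 2.01% and Pdk3 from 3.62 ± 0.521 to 12.8 ± 1.25% (SD, n = 3 each).

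**Figure D4:**
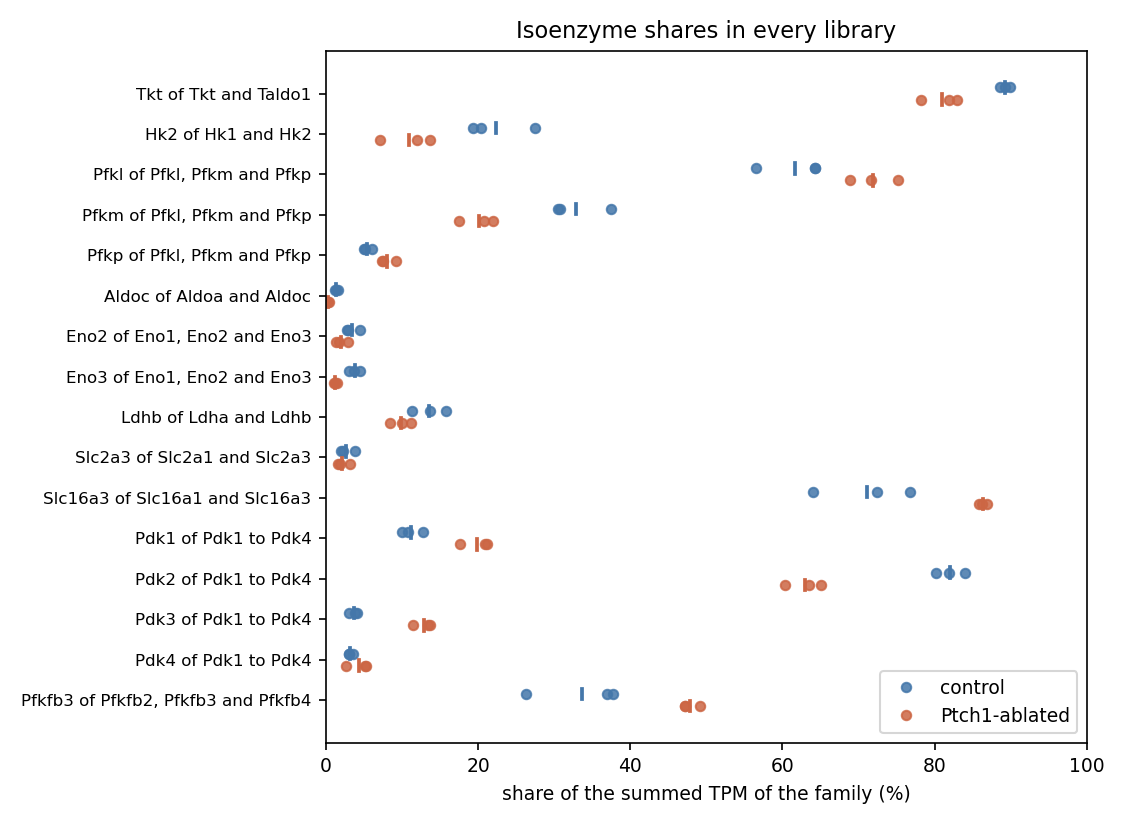
Share of one gene in the summed TPM of its family (%, horizontal axis) in each control and Ptch1-ablated library (points) with the group means (ticks). The groups lie apart in 13 of the 16 shares, with the widest gap for Pdk2, at 82.0 against 63.0%.

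A share within a library does not depend on how libraries are scaled to each other. Of the 16 shares compared, the groups did not overlap in 13, and shares of the same family are not independent. By CPM of single genes the groups did not overlap in 27.4% of all genes tested, which is a different measure. Shares of other families were not computed, so the 13 have no background of their own. Each of the 13 had an exact permutation p of 0.1 (two-sided, n = 3 against 3), the smallest this design allows, and 0.123 after adjustment over the 16, so that none could pass. Slc2a3, Eno2 and Pdk4 were the shares in which the groups overlapped.

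Spread between replicates was similar in the 2 groups. The median coefficient of variation over the members was 12.1% in controls and 13.1% in Ptch1-ablated libraries, from 0.89% for Pgam1 in controls to 47.4% for Aldoc in Ptch1-ablated libraries. Ptch1-ablated replicate 2 had the lowest CPM of its group in 25 of the 38 members, among them Tkt, Taldo1, G6pdx, Eno1 and Pkm. In controls the lowest values were spread over the 3 libraries, with 13, 13 and 12 members.

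Of 62 other genes of sugar metabolism, 51 could be tested, 0 were higher and 3 were lower, or 5.88%, beside 8.48% of all genes. Their median log2FC was 0.0049. The 3 were Ugp2, which makes UDP-glucose (-1.04 ± 0.20, adjusted p = 0.00609), G6pc3, a glucose phosphatase (-0.78 ± 0.20, adjusted p = 0.0304), and Pcx, the pyruvate carboxylase (-0.73 ± 0.18, adjusted p = 0.0241), each with its log2FC, SE and edgeR adjusted p. No other isoenzyme of the same steps passed among 11 tested, nor any of 8 other NADPH sources, nor any of 8 other glucose and lactate transporters. Among 13 tested targets of hypoxia-inducible factor outside glycolysis, 2 were higher (Ndrg1 and Bhlhe40) and 0 lower, beside 4.68% and 3.8% of all genes. The median over the list was 0.71 on the log2 scale.

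Several markers of other cells and of tissue handling moved with the members that rose. Of all genes tested, 4.68% were higher. Of 6 vascular endothelial markers 4 were higher. The summed level of the 6 was 666 to 842 CPM in controls and 919 to 966 in Ptch1-ablated libraries. Kdr, the most abundant of the 6, went the other way and did not pass. It was at 553 ± 87.3 CPM in controls and 420 ± 15.7 in Ptch1-ablated libraries (SD, n = 3 each), without overlap. Of 6 mural cell markers 3 were higher, at 352 to 364 and 631 to 639 CPM. Of 11 immediate early genes, which respond to dissociation, 7 were higher, at 9713 to 10877 and 16325 to 17661 CPM. The 8 leukocyte markers had 1 higher, and their sums overlapped at 920 to 965 and 812 to 1053 CPM. The part of these cells and of handling in the changes of Slc16a3, Hk1, Pfkl, Pfkfb3, Pgam1 and Pdk3 was not tested.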

How the data were processed

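Per the labels and the study's methods, keratocytes were sorted by flow cytometry, RNA was taken with Trizol, and the authors used Bowtie2 2.2.5 for alignment and RSEM 1.2.12 for quantification, with mm9 as the build in the submitters' processing notes. The annotation release and strandedness were not given in the sources used here. The deposited table holds expected counts, which are not normalized and of which 18.6% were not whole (tolerance 0.005), TPM values, scaled by the authors for length, and FPKM values, scaled by the authors for length and library size. The authors' group averages were not used.

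Members and lists were chosen with earlier results of these data known. Expected counts were rounded, filtered with edgeR's filterByExpr (13888 of 17606 genes kept), scaled by TMM and compared with edgeR's quasi-likelihood test (two-sided, no covariates, Benjamini-Hochberg over all genes tested), 3 libraries against 3. Intervals are 95% intervals of this fit. Each SE is the absolute log2 fold change divided by the root of F. Library totals of 20258439 to 24788063 make 3 counts worth 0.121 to 0.148 CPM, which covers counting error only. The edgeR p-values set a group difference against the spread between these libraries, which the fit estimates partly from the other genes. Isoenzyme shares of TPM (fixed families) were compared by an exact permutation test. All 39 members are named, with values per library for members that passed and for the member of each role with the highest mean TPM over all libraries. Alternatives were DESeq2, RLE and upper quartile scaling, library totals, limma on log2(TPM + 1) and log2(TPM + 0.1), other thresholds, the replicate number as a block, fits without each library in turn, no filter, and a minimum mean count of 50. Promoter windows are RefSeq's (GRCm38.p6), matched by symbol, and not of the build used for alignment. The fits were tested on simulated data. Software was Python 3.11.15 with scipy 1.17.1 and matplotlib 3.10.9, and DESeq2 1.42.0, limma 3.58.1 and edgeR 4.0.16 under R 4.3.3.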

Additional observations from a re-analysis of the deposited data

How the results depend on the processing

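The number of members past an adjusted p of 0.05 was 11, and 5 at an adjusted p of at most 0.01. Leaving out 1 library gave 7 to 11. The other alternatives gave 8 to 14, within 1.5 times the main count. No called member changed direction in any of the 15 other fits, and 6 of the 11 passed in all of them. Of the members not called, 4 (Pfkp, Pgk1, Ldha and Pdk1) passed in some fit and 23 in none. Directions near 0 turned as follows, as log2 fold changes. With library totals only they were 0.097 for Aldoa, 0.15 for Gapdh, 0.058 for Ldhb and 0.072 for Pdhb. With limma they were, at a TPM pseudocount of 1 and of 0.1, 0.022 and 0.0221 for Slc2a1, 0.1438 and 0.1439 for Aldoa, 0.1976 and 0.1977 for Gapdh, 0.0939 and 0.0945 for Ldhb and 0.1195 and 0.1207 for Pdhb. Upper quartile scaling gave -0.0136 for Pkm. With 1 library left out, values ran from -0.0362 to 0.4339 for G6pdx, -0.0025 to 0.1317 for Gpi1, -0.1551 to 0.0126 for Aldoa, -0.1162 to 0.0676 for Gapdh, -0.0858 to 0.2038 for Pkm, -0.2032 to 0.0651 for Ldhb, -0.2244 to 0.0063 for Pdhb and -0.0601 to 0.3382 for Pdk4. The difference in the Slc2a3 share ran from -0.9981 to 0.0705 percentage points. The cause was not tested. None of these members passed in any fit. Same-numbered libraries did not deviate together (r of -0.022, -0.063 and 0.039), and the main fit did not pair them. With 3 libraries per group, these values cannot exclude that the numbers mark a shared batch. With the replicate number as a block, 8 members passed, 4 higher and 4 lower, beside 942 genes in all. Depth limits Rpia most, with at most 14 counts.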
